A study of Mus musculus with 6 samples.

Results

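The genes Chek1, Brca1, Palb2, Brca2, Fancd2, Fanci, Rad54l, Rad54b and Blm, of homologous recombination and the Fanconi anaemia pathway, were followed in B cell progenitors of old and young mice. They are 9 of the 19938 genes that have a probe set of their own on the array. They were taken by name as members of the pathway, with no threshold on these arrays but with earlier results of these data known. Each was read from every probe set that the platform annotation pairs with that gene alone, which gave 1 probe set per gene. The material was pro-B and pre-B cells, sorted together from BALB/c mice, an inbred strain, and left without treatment. The old group held 3 arrays at 24 months of age and the young group 3 arrays at 2 months, each made from 100 ng of amplified RNA. Neither group carries a transgene or a deletion according to the labels, and the labels do not say how many animals an array holds. Every p-value below therefore measures the spread between these arrays, which may be technical. All levels are log2 of the deposited intensity, apart from summed intensities, which add the deposited values themselves, and differences are old minus young. The level of a gene among the 9 is not set against that of another of the 9.

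Homologous recombination repairs a DNA break by copying the intact sister strand, and it is used mainly while cells replicate their DNA or have just done so. The Fanconi pathway detects replication forks stalled at crosslinked DNA and hands them to the same repair machinery. Pro-B and pre-B cells alternate between cutting their immunoglobulin genes, which are rejoined by end joining, and bursts of division, when replication-linked repair is in use.

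In the old group, the transcripts of all 9 genes had lower means than in the young group, but no gene passed the threshold when all 3 old arrays were used. On old replicates 1 and 2 none of the 9 rose above background, and 79.5% of all tested probe sets were within it on both. On old replicate 3, the old array most like the young ones, the 7 genes above background stood 0.38 to 1.26 below their young means. Fancd2 and Palb2 had values within background on that array, which leave log2 bounds only. These were at least 1.04 lower for Fancd2 and at least 0.04 lower for Palb2. The median difference on that 1 array was -0.74 for the 9 genes and 0.05 for all tested probe sets. In sorted bulk cells, fewer cells that express a gene and less of its RNA per cell cannot be told apart.

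Old replicates 1 and 2 stood apart from the other arrays. Their log2 values correlated with those of the young arrays at r from 0.622 to 0.703 (over probe sets, whose values are not independent of each other), whereas old replicate 3 correlated with them at 0.976 to 0.984. Between young arrays r was 0.993 to 0.996. The interquartile range, a measure of signal range, was 2.72 to 2.89 for young arrays, 2.44 for old replicate 3 and 1.51 to 1.52 for the other old arrays, so old replicate 3 also lay outside the young range on both measures. Smell and pheromone receptor genes, silent outside sensory neurons, have 1205 probe sets, and their 95th percentile on an array was taken as its background, called the receptor background. It lay at 6.28 for old replicate 1, 6.19 for old replicate 2 and 5.02 for old replicate 3, and at 4.57 to 4.73 on the young arrays. Of the 23410 probe sets tested, 3492, 4080 and 11529 exceeded it on the old arrays, in order of replicate, and 12435 to 13200 on the young arrays. Results are therefore given with and without old replicates 1 and 2. Of 9 measured markers of B cell progenitors, among them Rag1, Ebf1 and Il7r, 9 lay above background on old replicate 3 and on each young array, against 4 and 6 on old replicates 1 and 2. Their summed intensity was 2776 to 7223 in the old and 8106 to 8633 in the young group. On old replicates 1 and 2 the largest part of it was Vpreb1, at 11.13 and 11.69, above its young mean of 10.99. The other markers lay below their young means on these arrays. The markers did not all hold their level on old replicate 3. Igll1, a surrogate light chain gene of early B cells, passed as lower there, at -1.28 ± 0.26 (SE, limma adjusted p = 0.0346). Dntt, which adds bases to immunoglobulin joints in pro-B cells, stood at -2.02 ± 0.54 (SE, limma adjusted p = 0.0665), while Rag1, Ebf1 and Il7r stood at -0.30, -0.29 and -0.01, none past the threshold. The part of the makeup of the progenitors in the differences of the 9 genes was not tested.

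E2F factors switch on genes needed for DNA replication, and letters that they are known to bind were searched in the promoters. RefSeq promoter windows (GRCm38.p6), reaching from 250 bases before to 50 bases after the transcription start, were at hand for 7 of the 9 genes. The E2F letters were TTCCCGC, with the variants TTGGCGC and also TTCGCGC and lastly TTGCCGC, and they occurred on either strand in 5 of these 7 windows and in 9.69% of the windows of 27025 genes. The sites are shown because they are a feature of the group that the choice of genes did not use. Each line runs 5′ to 3′ along the gene's strand, 30 bases long, with the match in capitals. A match on the opposite strand appears as its reverse complement.

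Chek1, chr9:36726609-36726638, minus strand, bases 21 to 50 from the start: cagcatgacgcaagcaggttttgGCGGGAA

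Brca1, chr11:101551917-101551946, minus strand, bases 10 to 39 from the start: ggctagcgctagGCGCCAAgcggccggttt

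Brca2, chr5:150522441-150522470, plus strand, bases -180 to -151 from the start: ttttaggccacaGCGGGAAacagacacaca

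Fanci, chr7:79392344-79392373, plus strand, bases 7 to 36 from the start: gcgtggagtagaGCGGGAAttttggaagga

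Blm, chr7:80535123-80535152, minus strand, bases -154 to -125 from the start: gaatcatccttcTTGCCGCgcagagcgtgc

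Chek1, Brca2 and Fanci hold the same 7 letters, TTCCCGC, on the opposite strand, while Brca1 and Blm each hold a different version. In Chek1, Brca1 and Fanci the match lies just after the start, and in Brca2 and Blm upstream of it. The letters CCAAT, bound by NF-Y, occurred in 4 of the 7 windows (Brca1, Palb2, Rad54l and Blm) and in 37.9% of all windows. The CHR letters TTTGAA, or the variant TTCGAA, known from promoters of genes used in mitosis, occurred in 0 of the 7 and in 19.4% of all. A match is a description of letters and not a shown binding site.

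The upstream part of the Blm promoter holds both kinds of match close together and is given in full, 250 bases ending at the start (chr7:80534999-80535248, minus strand), with E2F and CCAAT matches in capitals. The CCAAT letters begin at base -186 on the opposite strand and at base -161 on the gene's own strand, and the E2F letters at base -142.

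Blm: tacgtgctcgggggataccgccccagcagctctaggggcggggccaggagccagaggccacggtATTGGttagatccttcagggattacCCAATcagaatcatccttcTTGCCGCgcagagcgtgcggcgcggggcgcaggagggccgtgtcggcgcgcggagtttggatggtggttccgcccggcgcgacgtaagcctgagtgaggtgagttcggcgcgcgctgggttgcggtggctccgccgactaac

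Chek1 encodes the checkpoint kinase CHK1, which halts the cycle when replication stalls and activates recombination proteins. Chek1 (probe set 10592201) read 4.53, 4.73 and 5.62 in old replicates 1 to 3, while young replicates 1 to 3 read 6.87, 6.73 and 7.04. All 3 old values lay below all 3 young ones, as held for 22.9% of all tested probe sets, and the old value nearest to them was that of replicate 3. On old replicate 3 alone Chek1 was 2.4-fold lower than the young mean of 6.88 ± 0.15 (SD, n = 3), a difference of -1.26 ± 0.15 (SE, limma adjusted p = 0.0105). With all 3 old arrays the measured difference was -1.92 ± 0.32 (SE, limma adjusted p = 0.101). With the values of replicates 1 and 2 set to background it has a bound of at least 0.85 lower on the log2 scale. That bound holds only if the arrays share an intensity scale.

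BRCA1, PALB2 and BRCA2 act in a row: BRCA1 recruits PALB2 to a processed break, and PALB2 brings BRCA2, which prepares the processed end for strand exchange. Brca1 (probe set 10391461) read 5.13, 5.16 and 6.25 in the old group, in the same order, and 6.93, 6.74 and 7.31 in the young group. Palb2 (probe set 10567663) read 4.32, 4.84 and 4.29 in the old and 5.10, 4.98 and 5.11 in the young group, with all 3 old values within the background of their arrays. For Brca2 (probe set 10527801) the old arrays gave 5.41, 5.32 and 5.64, and the young arrays 6.30, 5.92 and 6.69. In each of the 3 genes every old array lay below every young array, as held for 22.9% of all tested probe sets. On old replicates 1 and 2 all 3 genes were within background, which lay above every young value of Palb2.

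On old replicate 3, Palb2 differed from the young mean of 5.06 ± 0.07 (SD, n = 3) by -0.77 ± 0.13 (SE, limma adjusted p = 0.0216). Its old value lay within the receptor background of that array, so the measured 1.71-fold difference shrinks to a bound of at least 1.03-fold lower when the value is raised to that level. Brca1, above background on old replicate 3, differed from 6.99 ± 0.29 (SD, n = 3) by -0.74 ± 0.21 (SE, limma adjusted p = 0.0772). Brca2 differed from 6.30 ± 0.38 (SD, n = 3) by -0.66 ± 0.26 (SE, limma adjusted p = 0.151). Neither of these passed the threshold, and their 95% intervals ran from -1.24 to -0.24 for Brca1 and from -1.27 to -0.06 for Brca2.

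FANCD2 and FANCI form the clamp that is ubiquitinated on damaged DNA, the central step of the Fanconi pathway. Fancd2 (probe set 10540738) read 4.90, 4.6 and 4.84 in the old group against 6.0, 5.71 and 6.47 in the young group. The 3 old values lay below every young one, but all were within the background of their arrays. On old replicates 1 and 2 that background lay above the young mean of Fancd2. Fanci (probe set 10554281) read 5.81, 5.19 and 5.76 against 6.29, 5.92 and 6.21, the smallest gap of the 9 genes between the highest old and the lowest young array. On old replicate 3 the Fancd2 difference was -1.21 ± 0.26 (SE, limma adjusted p = 0.0393) from a young mean of 6.06 ± 0.38 (SD, n = 3). That old value was also within the receptor background, which leaves a bound of at least 2.06-fold lower. Fanci differed from 6.14 ± 0.20 (SD, n = 3) by -0.38 ± 0.17 (SE, limma adjusted p = 0.194), with a 95% interval from -0.78 to 0.01. Whether the 2 partners differed in their change was not tested.

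RAD54 and its relative RAD54B are motor proteins that act on DNA and help a broken end invade the sister strand. Rad54l, the gene of RAD54 (probe set 10515257), read 5.80, 5.98 and 6.93 in the old group and 7.56, 7.14 and 7.78 in the young group. Rad54b (probe set 10503315) gave 5.32, 5.58 and 5.86 on the old arrays and 7.02, 6.62 and 7.13 on the young arrays. Old replicate 3 came close to the lowest young array for Rad54l but not for Rad54b. On that array Rad54b was 2.09-fold lower than the young mean of 6.92 ± 0.27 (SD, n = 3), a difference of -1.06 ± 0.20 (SE, limma adjusted p = 0.0293). Rad54l differed from 7.49 ± 0.33 (SD, n = 3) by -0.56 ± 0.23 (SE, limma adjusted p = 0.167), with a 95% interval from -1.10 to -0.02.

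BLM is the helicase that dissolves crossed DNA intermediates without exchange of the flanking arms. Blm (probe set 10564978) read 5.17, 4.61 and 6.67 in the old group and 7.05, 7.00 and 7.53 in the young group, with old replicates 1 and 2 within background and old replicate 3 close to the lowest young array. Its difference on old replicate 3 was -0.52 ± 0.21 (SE, limma adjusted p = 0.166) from a young mean of 7.19 ± 0.29 (SD, n = 3).

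**Figure D1:**
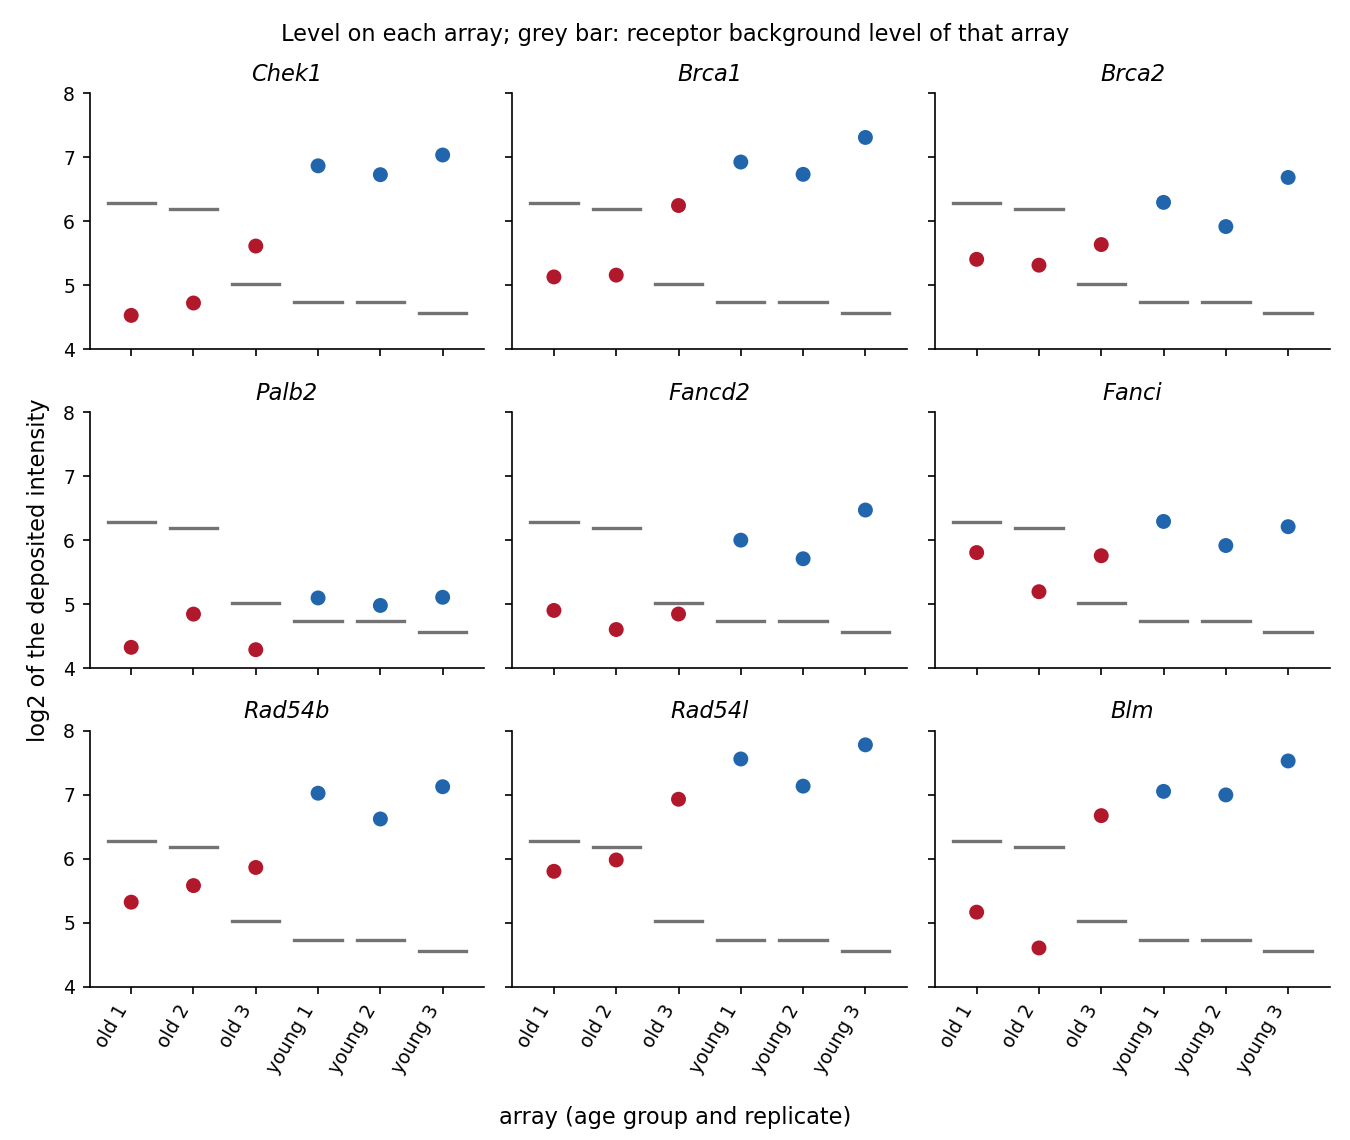
Level of each of the 9 genes on the 6 arrays, as log2 of the deposited intensity. Red points are old arrays and blue points young arrays, and the grey bar is the receptor background level of that array. On old replicates 1 and 2 every point lies under the bar, on old replicate 3 Palb2 and Fancd2 do, and on the young arrays none does.

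The genes had been chosen with earlier results of these data known, so the counts and shares that follow are a description. Counted together, 9 of 9 genes had every old array below every young array. The same held for 22.9% of all tested probe sets, and for 39.1% of the 7252 tested probe sets whose young mean lay in the range of the 9 genes, 5.06 to 7.49. With all 3 old arrays, 8 of 9 had an unadjusted p under 0.05 and were lower (limma), where 21.9% of all tested probe sets and 32.3% of those in the same range of young means were. After adjustment 0 of 9 passed, at adjusted p from 0.101 to 0.121, and 0% of all probe sets passed, although 10966 had an unadjusted p under 0.05 in either direction. The median measured difference was -1.28 for the 9 genes, -0.33 for probe sets in the same range of young means and 0.35 for all tested.

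On old replicates 1 and 2 the 9 genes have only bounds. All 9 genes were within the receptor background on both arrays, as were 79.5% of all tested probe sets and 67% of those in the same range of young means. With those 2 old arrays alone against the young arrays, 9 of 9 genes passed as lower (limma adjusted p under 0.05), and 30.2% of all probe sets and 47.1% of those in the same range of young means did. With each old value set to its array's background, bounds remain for 6 genes, of at least 2.39-fold lower for Rad54l, 1.94 for Blm, 1.69 for Brca1, 1.61 for Rad54b, 1.56 for Chek1 and 1.05 for Brca2. None is left for Palb2, Fancd2 and Fanci, whose young means lay under the background of these arrays. The bounds hold only if these 2 arrays share the intensity scale of the young arrays, which was not tested. Their interquartile range was 1.51 to 1.52, against 2.72 to 2.89 on the young arrays.

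Without old replicates 1 and 2 the comparison rests on old replicate 3, which limma assumes to vary as the young arrays do. On that array 9 of 9 genes lay below every young array, as did 31.8% of all tested probe sets and 51.4% of those in the same range of young means. An unadjusted p under 0.05 with a lower value was found for 8 of 9 (15.5% of all probe sets and 27.8% of those in that range). After adjustment 4 of 9 passed as lower, against 5.24% of all probe sets and 9.58% of those in the same range. The median difference was -0.74 for the 9 genes, -0.14 for that range and 0.05 for all tested probe sets. The young arrays decided part of the calls: without young replicate 1 only Chek1 of the 9 still passed (Fancd2, Rad54b and Palb2 had limma adjusted p of 0.0958, 0.0891 and 0.0781), and without young replicate 3 Brca1 passed as well. In the fit without young replicate 1, limma called 189 probe sets in place of 1638, and without young replicate 3 it called 3920. Quantile normalization reduced the differences of all genes but Palb2, which stood at -0.80. They became -0.96 for Chek1, -1.05 for Fancd2, -0.77 for Rad54b and -0.48 for Brca2. Those of Brca1, Rad54l, Fanci and Blm became -0.45, -0.27, -0.25 and -0.24.

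**Figure D2:**
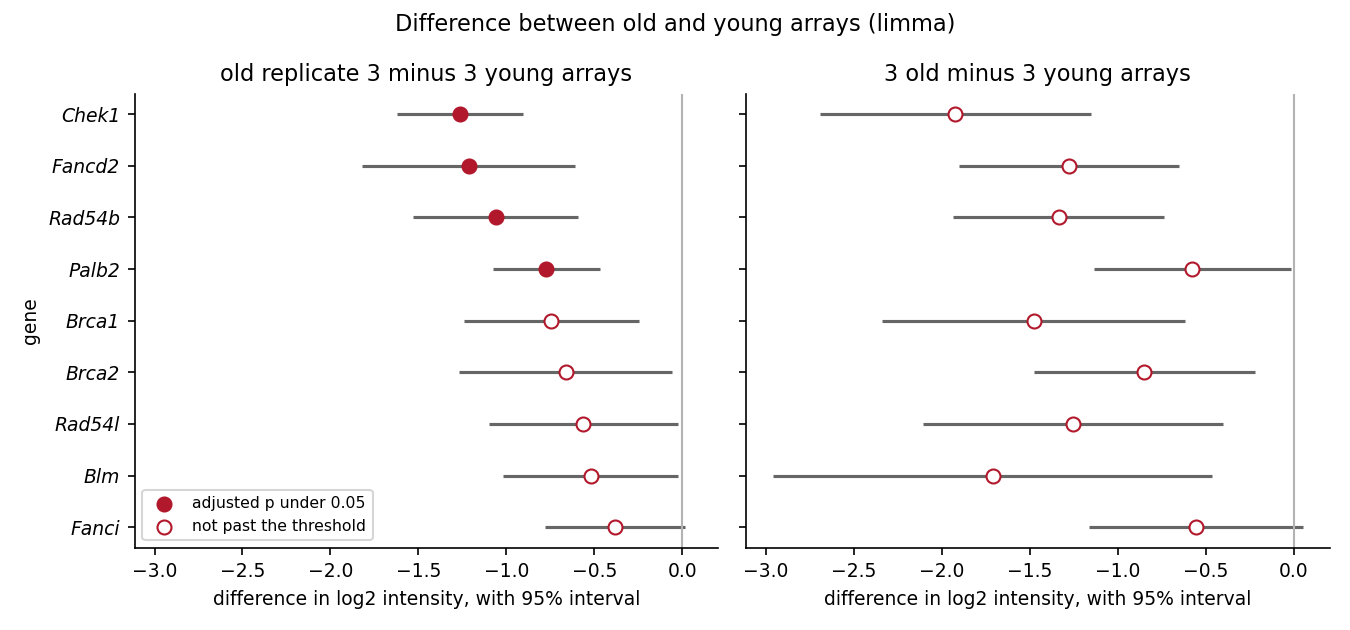
Difference in log2 intensity between old and young arrays for each of the 9 genes, with its 95% interval from limma, on the left for old replicate 3 alone and on the right for all 3 old arrays. Filled points have an adjusted p under 0.05, which 4 genes reach on the left and 0 on the right; all 18 points lie below 0.

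The 9 genes also varied among the young arrays. Young replicate 2 was the lowest young array for 9 of 9 genes, which held for 30.5% of all tested probe sets and 37.7% of those in the same range of young means. Young replicate 3 was the highest for 8 of 9, against 36.6% and 50.7%. Fanci was the exception, with its highest value on young replicate 1. Relative to each gene's young mean, the median of the 9 was -0.26 on young replicate 2 and 0.29 on young replicate 3. Their SDs over the young arrays ran from 0.07 for Palb2 to 0.38 for Fancd2 and Brca2, with a median of 0.29, and the median SD of all tested probe sets was 0.11. The gene with the tightest young values after Palb2 was Chek1, at an SD of 0.15.

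Markers of division and of other marrow cells moved over the same arrays. Of 16 measured proliferation genes, such as Mki67, Top2a and the Mcm genes, 15 were lowest among the young arrays on young replicate 2 (30.5% of all tested probe sets). On young replicate 3, 15 were highest (36.6% of all). On old replicate 3, 16 lay below every young array (31.8% of all), with a median of -0.48 from the young mean. Neutrophil markers, from Mpo to S100a8, were 7 of 7 above background on old replicate 3 and the young arrays. Among the young arrays they were highest on young replicate 3 for 7 of 7, against 36.6% of all tested probe sets. Their summed intensities were 1930 to 8077 in the old and 7599.7 to 9607.8 in the young group. Of 4 monocyte and macrophage markers 2 or 3 lay above background on the young arrays and 2 on old replicate 3, where they summed to 382, against 518 to 1102 on the young arrays and 149 to 198 on the other two old arrays. Lyz2 made up most of that sum on old replicate 3 and the young arrays, while Cd68 was the largest part on old replicates 1 and 2. Adgre1 was above background on no array. Erythroid markers summed to 184 to 308 in the old and 165 to 255 in the young group, with 1 to 2 and 3 to 4 of 4 above background. T cell markers summed to 101 to 183 and 75.8 to 102, with 0 to 1 and 0 to 2 of 4 above background, and Cd4 and Cd8a were above it on no array. Plasma cell markers summed to 146 to 202 and 170 to 191, with 0 to 3 and 3 of 4 above background. The part of these cells and of division in the differences of the 9 genes was not tested.

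**Figure D3:**
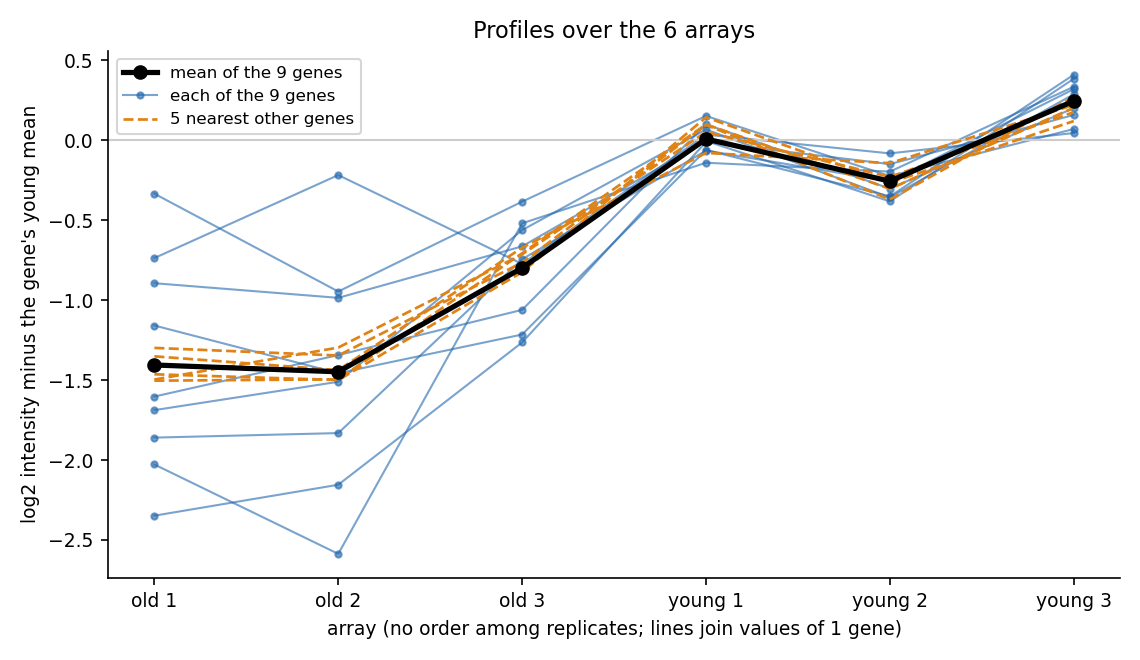
Log2 intensity on the 6 arrays after subtracting each gene's young mean, for the 9 genes (blue), their mean (black) and the 5 other genes with the nearest profile (orange, dashed). Values fan out on old replicates 1 and 2, where all 9 genes are within background, and narrow to between -1.26 and -0.38 on old replicate 3.

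Other genes of the pathway are given by list for old replicate 3, and each count of lower calls stands against the 5.24% of all tested probe sets called lower there. The list of resection and strand exchange, the steps that prepare a broken end and pair it with the sister, had 16 of 19 genes measured, of which 3 passed as lower and 0 as higher, at a median of -0.35. The 3 were Mre11a, the nuclease that starts resection (-0.70 ± 0.15, SE), Brcc3, a deubiquitinase that binds BRCA1 (-0.68 ± 0.15, SE), and Swi5, a cofactor of strand exchange (-0.54 ± 0.12, SE). The lowest value was that of the nuclease Dna2 (-0.77 ± 0.27, SE, not past the threshold), and the highest that of the recombination gene Xrcc3 (0.09 ± 0.15, SE). On the Fanconi list 17 of 18 were measured and 1 passed, Apitd1 (-0.70 ± 0.13, SE), a histone-fold partner of the FANCM translocase. Its other values ran from -0.71 for the helicase gene Brip1 to 0.12 for Fancf, a core complex subunit, neither past the threshold, and the median was -0.20. The single call of the Fanconi list is a share near that of all probe sets. Without young replicate 1 the fit called 0 genes of both lists, and without young replicate 3 it called 7 and 5. Quantile normalization gave 1 and 0 calls, and centring the arrays on their medians 6 and 4.

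Helicases and junction-processing genes gave 2 of 14 measured as lower and 0 as higher, at a median of -0.32. They were Parpbp, an inhibitor of recombination (-1.59 ± 0.15, SE, limma adjusted p = 0.00603), and the helicase gene Recql (-1.0 ± 0.16, SE). The Parpbp value on old replicate 3 was 4.95, within background, while the young arrays stood at 6.45, 6.44 and 6.71, which leaves a fall of at least 1.51 on the log2 scale. Recql4, another helicase of the family, had the highest value at 0.38 ± 0.12 (SE), not past the threshold. The fit called 2 genes of this list without young replicate 1 and 5 without young replicate 3.

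The list of the checkpoint around ATR and CHK1, which also holds targets of CHK1 such as Wee1 and Cdc25a, had 5 of 17 genes lower, 0 higher and a median of -0.54, the lowest of the 6 lists. Atr, the kinase that activates CHK1, differed by -0.99 ± 0.16 (SE, limma adjusted p = 0.0206), and its partner Atrip was at 0.21 ± 0.13 (SE), the highest value of the list and not past the threshold. Rpa3 and Rpa2, subunits of the protein that coats single-stranded DNA and calls ATR to it, differed by -0.92 ± 0.14 (SE) and -0.82 ± 0.14 (SE). Atm, the kinase of double-strand breaks, differed by -0.77 ± 0.14 (SE), and Timeless, which protects forks, by -0.79 ± 0.18 (SE), the latter with an old value within background. Without young replicate 1, 0 of the 17 genes passed, and without young replicate 3, 8 did. Quantile normalization left 3 calls.

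End joining, the other route of break repair, had 2 of 11 genes lower and 0 higher at a median of -0.18. They were Rif1, which shields ends from resection (-1.08 ± 0.15, SE), and Xrcc5, the gene of the end-binding protein Ku80 (-0.91 ± 0.17, SE), while Nhej1 stood at 0.00 ± 0.15 (SE). The proliferation list had 2 of 16 lower and 0 higher, the spindle checkpoint kinase gene Bub1 (-0.95 ± 0.18, SE) and the cyclin gene Ccnb2 (-0.68 ± 0.14, SE), and the replication clamp gene Pcna was at -0.05 ± 0.12 (SE). Both lists had 0 called genes without young replicate 1, and 5 and 7 without young replicate 3. After quantile normalization they had 2 and 0, and after centring 4 and 4. No list was tested against another. With all 3 old arrays 0 genes of these 6 lists passed in limma.

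**Figure D4:**
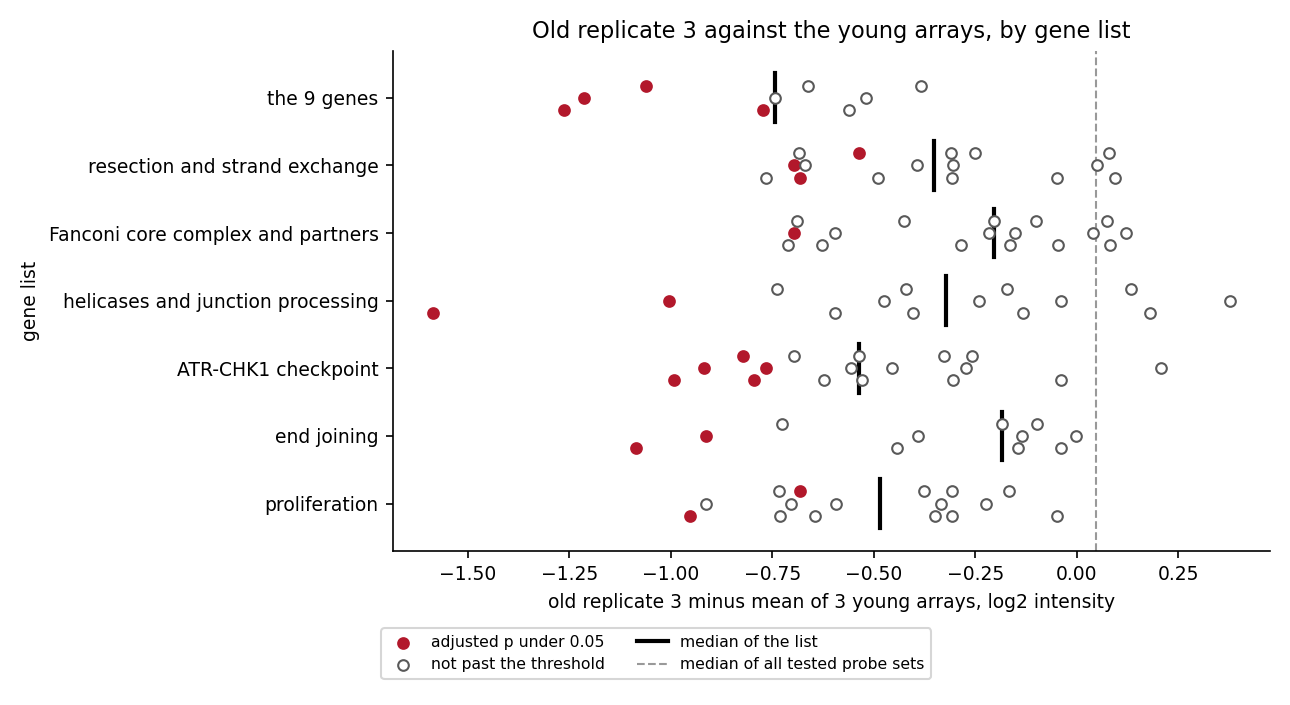
Old replicate 3 minus the mean of the 3 young arrays, in log2 intensity, for each measured gene of the 9 and of 6 lists; points are spread vertically only to separate them. Filled points have an adjusted p under 0.05 (limma), black bars are list medians, from -0.74 for the 9 genes to -0.18 for end joining, and the dashed line is the median of all tested probe sets at 0.05.

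The genes nearest to the mean profile of the 9 over the 6 arrays were Zfp280b, Bcl9, Dgcr8, Zgrf1 and Dctpp1. Their root mean square difference from it was 0.07 to 0.09 on the log2 scale, against a median of 1.24 over the 19929 genes compared. The 9 genes themselves lay 0.15 (Rad54b) to 0.58 (Palb2) from their own mean. Dgcr8 is a subunit of the microRNA-processing complex, Bcl9 a Wnt coactivator, Zgrf1 a helicase gene and Dctpp1 an enzyme that breaks down dCTP. On old replicates 1 and 2 the 9 genes were within background, while Dgcr8, Zgrf1 and Dctpp1 lay above it. For these, the likeness on those arrays sets background values against measured ones. The nearest genes were picked for this likeness, which is a description.

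Brca1 and Palb2 start beside another gene on the opposite strand, and the values of these neighbours, named for their position, are set beside theirs. Dctn5, a dynactin subunit gene whose promoter window overlaps that of Palb2, stood at 9.92 on old replicate 3 and at 9.96, 10.04 and 9.79 on the young arrays. Its difference was -0.01 ± 0.14 (SE, limma adjusted p = 0.97), whereas Palb2, within background on that array, has only a bound of at least 0.04 lower on the log2 scale. Nbr1, an autophagy receptor gene next to Brca1, stood at 7.03 against 7.17, 7.23 and 7.28, a difference of -0.20 ± 0.13 (SE, limma adjusted p = 0.342), where Brca1 had -0.74. Whether the genes of a pair differed in their change was not tested. In old replicates 1 and 2 Dctn5 read 7.05 and 6.75 and Nbr1 read 6.26 and 6.55.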

How the data were processed

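Probe set intensities of 6 whole-transcript arrays were used, 3 old and 3 young. The deposited values are linear intensity per probe set, and the submitters' processing notes name RMA; its version is not given in the sources used here. Log2 was taken first. Of 28940 probe sets, 23410 had at least 1 gene in the platform annotation and were tested without a filter on level. Ages come from the labels.

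Old and young arrays were compared by limma, version 3.58.1 under R 4.3.3 (lmFit, eBayes, 2-sided), across all tested probe sets, with Benjamini-Hochberg adjustment and a threshold of 0.05, for all 3 old arrays and for old replicate 3 alone. The brightest single-gene probe set stood for genes with several. The code was tested on simulated data. Tables and figures used Python 3.11.15, pandas 2.3.3 and matplotlib 3.10.9.

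The genes, lists and tests were chosen with earlier results of these data known. Named from each list were its lowest and highest value on old replicate 3 and up to 4 called genes, and Timeless, the fifth called checkpoint gene, was added after its value was seen. The listed gene Stra13 was left out because RefSeq gives that synonym to several genes. The neighbour genes, within 1000 bases, and the printed 30-base windows were also chosen after the data were seen. Where a value lay within the receptor background, it was raised to that level for a bound. Every such bound takes the old and young arrays to share an intensity scale, which was not tested.

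Same-numbered old and young arrays deviated together from their group means, at r of 0.15, 0.155 and 0.284 across probe sets, above the limit of 0.1. A fit with the replicate number as a block was therefore run as an alternative, and the differences given above come from the unpaired fit. The pairing rests on the data, not the labels. Old replicate 1 with young replicate 2, at 0.149, and old replicate 2 with young replicate 1, at 0.139, also exceeded the limit. The number of arrays limits the precision.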

Additional observations from a re-analysis of the deposited data

How the results depend on the processing

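The differences of the 9 genes stayed below 0 in 117 of 117 values under the alternatives for all 3 old arrays and in 72 of 72 for old replicate 3, where they ran from -1.40 for Chek1 after centring to -0.24 for Blm under quantile normalization. Only centring and quantile normalization could have changed a sign. Every old array lay below every young array for each of the 9 genes, so leaving out or weighting arrays could not. The other settings keep the difference of the main fit. With all 3 old arrays, estimated array weights gave 19998 called probe sets of the 23410 tested, and 8 of the 9 genes, in place of 0 and 0. Of these probe sets 7351 were lower and 12647 higher, so most of the array was called. The cause was not tested. Leaving out each array in turn gave 0 to 19285 called probe sets and 0 to 9 of the genes, the high values without old replicate 3 and 0 without any other array. Without old replicate 3, 7060 probe sets were called lower (30.2% of all tested) and 12225 higher. With the replicate block 0 of the 9 genes and 0 probe sets were called, so the paired fit changed no call. For old replicate 3, 1638 called probe sets became 2675 with arrays centred on their median and 3733 at an adjusted p under 0.1; leaving out each young array gave 189 to 3920, and 1 to 5 of the 9 genes. The share of calls that were lower was 74.9%, 91% after centring, which moved the median of all tested differences from 0.05 to -0.09, and 61.6% with all probe sets of the table. Chek1 passed under 8 of 8 alternatives, at adjusted p from 0.000128 to 0.0494. Fancd2, Rad54b and Palb2 passed under 7 of 8, the exception being without young replicate 1, at adjusted p of 0.0958, 0.0891 and 0.0781. Averaging the probe sets of a gene was not run, since each of the 9 genes has 1.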
